A study of Mus musculus with 2 samples.

Results

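The genes described here carry glucose carbon into the cell, through glycolysis to pyruvate and lactate, and on through pyruvate dehydrogenase into the tricarboxylic acid (TCA) cycle. They were taken from a list of 37 mouse gene symbols, and a probe set of the array was assigned to a gene where that symbol was its only annotated one. By this rule 34 of the 37 genes had at least 1 probe set, 82 probe sets in all, out of 18193 genes and 34945 such probe sets on the array. Gpi1, Gapdh and Eno1 had none and were not analysed here as members. Of the 34, 33 lay above the floor on dim signals defined below, and the lactate exporter gene Slc16a3 lay under it.

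The study set adipose tissue of C57BL/6 mice on the high fat diet HFD32, given to induce obesity, against adipose tissue of C57BL/6 mice on CE-2, the normal diet. Both diets ran for 12 weeks, starting at 6 and ending at 18 weeks of age, when RNA was taken. Each diet was measured on 1 Affymetrix array, which held a pool of RNA of 3 animals. The labels name neither the fat depot nor the sex of the animals, and no genotype beyond the strain.

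Glycolysis splits glucose in the cytosol into pyruvate, which can leave the cell as lactate or enter mitochondria, where pyruvate dehydrogenase turns it into acetyl-CoA. Pyruvate dehydrogenase kinases (Pdk genes) switch that enzyme off, and Pdk4 is known as the kinase that rises when tissues burn fatty acids. In fat cells, insulin brings the transporter GLUT4 (Slc2a4) to the surface, and the carbon that enters supplies both the glycerol backbone and the fatty acids of triglyceride.

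With 1 pool per diet there were no replicates and no replicate check, so the diets are compared without a test or p-value. A level is the deposited log2 signal, and a difference is the high fat diet level minus the normal diet level, so that 1 is a 2-fold ratio. A gene is represented by its brightest probe set, and it was compared where the mean level of both arrays reached 5.44, the median of all probe sets other than controls (the floor). Of the 11778 genes compared, 386 (3.28%) passed 2-fold upward and 388 (3.29%) downward on the high fat diet array, while 966 (8.20%) passed 1.5-fold upward and 1004 (8.52%) downward. The differences of probe sets of the same gene had an SD of 0.27, and in 3105 genes with 2 probe sets above the floor these differences lay apart by a median gap of 0.18, with the 95th percentile at 0.70. That error covers the probes alone, not the animals, the dissection or the hybridisation.

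The arrays also differed in other ways. Adipocyte markers were bright on both, with 7 of 10 listed markers measured, levels of 11.12 to 14.12 on the high fat diet array and 11.59 to 14.21 on the normal diet array, and a median difference of -0.19. Of these 7, 6 were lower and 1 higher on the high fat diet array. Macrophage markers were higher in 10 of 10 cases, by 0.29 (Cd14) to 2.30 (Cd68) with a median of 1.44, at mean levels of 10.77 on the high fat diet array and 9.55 on the normal diet array. Hepatocyte markers were lower in 10 of 10 cases, with differences of -6.70 (Serpina1c) to -4.42 (Apoa1), a median of -5.52, and mean levels of 5.10 on the high fat diet array and 10.78 on the normal diet array. Of these 10, 4 were under background on the high fat diet array, so their differences are limits. Background was the 95th percentile of 81 probe sets of sensory receptor genes, 4.96 on the high fat diet array and 4.94 on the normal diet array. Skeletal muscle markers were lower in 9 of 9 cases above the floor, with differences of -2.72 (Myh4) to -0.62 (Acta1), a median of -1.97, and mean levels of 7.19 on the high fat diet array and 8.93 on the normal diet array. In such bulk tissue fewer cells of a type and less RNA per cell cannot be told apart. Control probe sets for the 5′ end, middle and 3′ end of Actb differed by 0.31, 0.24 and 0.18, and those of Gapdh by -0.03, -0.02 and -0.10. The Gapdh controls, outside the rule for members, are also the readout of that glycolytic enzyme here, with levels of 12.95 to 13.07 on the high fat diet array and 13.01 to 13.10 on the normal diet array.

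Most members lay close to their normal diet level on the high fat diet array, and a few stood out in either direction. Pdk4, the kinase that shuts pyruvate dehydrogenase, and Tpi1, triose phosphate isomerase of glycolysis, were at least 1.5-fold higher. Slc2a4, the lactate dehydrogenase gene Ldhb, the kinase gene Pdk1 and Suclg2, a subunit of a TCA cycle enzyme, were at least 1.5-fold lower. The other 27 of 33 members differed by less than 1.5-fold. At 2-fold the counts were 1 higher (Pdk4) and 1 lower (Ldhb) of 33, beside 3.28% and 3.29% of all genes, and at 1.5-fold they were 2 and 4 of 33, beside 8.20% and 8.52%. Both sets of counts are small and of the order seen over all genes.

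The median difference over the 33 members was -0.15, with 13 higher, 19 lower and Hk1 equal on both arrays, against a median of 0 over all genes, of which 49.9% were higher and 49.3% lower. The quartiles of the members were -0.32 and 0.18, and those of all genes -0.23 and 0.23. The members were bright genes, with a median mean level of 10.54 against 7.99 over all genes compared. By brightest probe set, glycolytic enzymes and the mitochondrial steps among the members had medians of opposite sign. Of 9 glycolytic enzyme genes 6 were higher and 2 lower with a median of 0.18. Of 16 genes of pyruvate dehydrogenase and the TCA cycle 4 were higher and 12 lower with a median of -0.16. Both medians were smaller than the SD of 0.27 between probe sets of 1 gene. Outside the list, other glycolytic enzymes had 5 higher and 7 lower with a median of -0.05. Other TCA cycle and shuttle genes had 8 higher and 10 lower, also with a median of -0.05. The upper glycolysis genes turned to a median of -0.31 over the 3 that remained when probe sets able to match several transcripts were set aside.

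**Figure D1:**
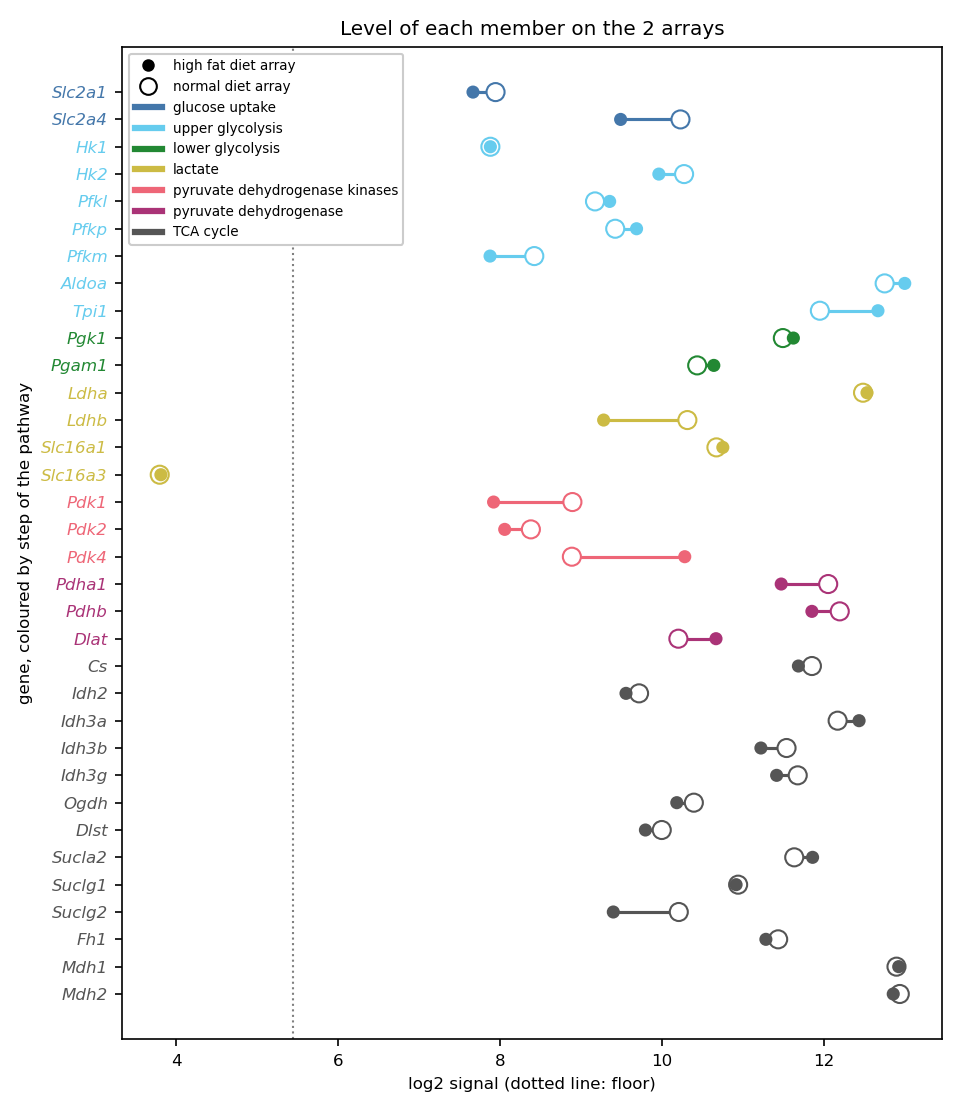
Level of each member on its brightest probe set (log2 signal, horizontal axis) on the high fat diet array (filled points) and the normal diet array (larger open rings), coloured by step of the pathway. Pdk4 and Tpi1 lie to the right of their normal diet value, and Ldhb, Pdk1, Suclg2 and Slc2a4 to the left, while Slc16a3 lies under the floor of 5.44 on both arrays.

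Of the 2 glucose transporters of the list, Slc2a4 had a lower level with the high fat diet. Slc2a4, the insulin-responsive transporter GLUT4, had a level of 9.49 on the high fat diet array and 10.23 on the normal diet array, a difference of -0.74 or 1.67-fold lower. Its other probe set gave -0.77. Skeletal muscle markers (median -1.97) and adipocyte markers (median -0.19) were lower as well, and their part in the Slc2a4 difference was not tested. Slc2a1, the transporter GLUT1 that works without insulin, had 7.67 on the high fat diet array and 7.94 on the normal diet array, a difference of -0.28. Its dimmest probe set above the floor read 0.01, so no direction can be read for Slc2a1.

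In the upper part of glycolysis, which ends with the split of the sugar into triose phosphates, Tpi1 stood apart from the other genes. Tpi1, which interconverts the triose phosphates, had a level of 12.67 on the high fat diet array and 11.95 on the normal diet array, 1.64-fold higher. The 3 Tpi1 probe sets read 0.72, 0.61 and 0.61. Each of these passed 1.5-fold, and all 3 are of a kind that can match several transcripts. Aldolase A (Aldoa), the enzyme before it, was higher by 0.25 with levels of 13.00 on the high fat diet array and 12.75 on the normal diet array, and its 5 probe sets ran from 0.10 to 0.26. All 5 are of that kind too, so they may not read Aldoa alone.

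The phosphofructokinase genes, whose products form the main control point of glycolysis, did not move as a group. Pfkm, the muscle-type subunit, had 7.88 on the high fat diet array and 8.42 on the normal diet array, a difference of -0.55, or 1.46-fold lower, on its single probe set. Pfkl, the liver-type subunit, had 9.35 on the high fat diet array and 9.17 on the normal diet array. Pfkp, the platelet-type subunit, had 9.69 on the high fat diet array and 9.42 on the normal diet array. The differences of Pfkl and Pfkp were 0.18 and 0.26 (0.28 and 0.57 on their second probe sets above the floor), and Pfkm lay 0.73 and 0.81 below them, just past the 95th percentile of gaps within a gene. Skeletal muscle markers, whose median was -1.97, moved in the direction of Pfkm, and their part in its difference was not tested.

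The hexokinases trap glucose in the cell as glucose 6-phosphate. Hk2, the insulin-regulated form of fat and muscle, had 9.96 on the high fat diet array and 10.27 on the normal diet array, a difference of -0.31 on 1 probe set. Hk1, the broadly expressed form, had 7.88 on both arrays, and its other probe set read 0.07. The arrays held exactly the same value on 1509 of 45101 probe sets, of which this is 1, so the equality of Hk1 is a feature shared with many other probe sets.

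In the lower part of glycolysis, which yields ATP and pyruvate, differences were small. Pgk1, phosphoglycerate kinase, had 11.62 on the high fat diet array and 11.49 on the normal diet array, and its 3 probe sets lay between 0.13 and 0.15. Pgam1, phosphoglycerate mutase, had 10.64 on the high fat diet array and 10.43 on the normal diet array, a difference of 0.21. None of these readings exceeded the SD of 0.27 between probe sets of 1 gene. Gapdh, which acts just before Pgk1, read -0.03, -0.02 and -0.10 on its control probe sets. Pkm, which makes pyruvate in the last step and was not a listed member, had 10.78 on the high fat diet array and 10.68 on the normal diet array.

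**Figure D2:**
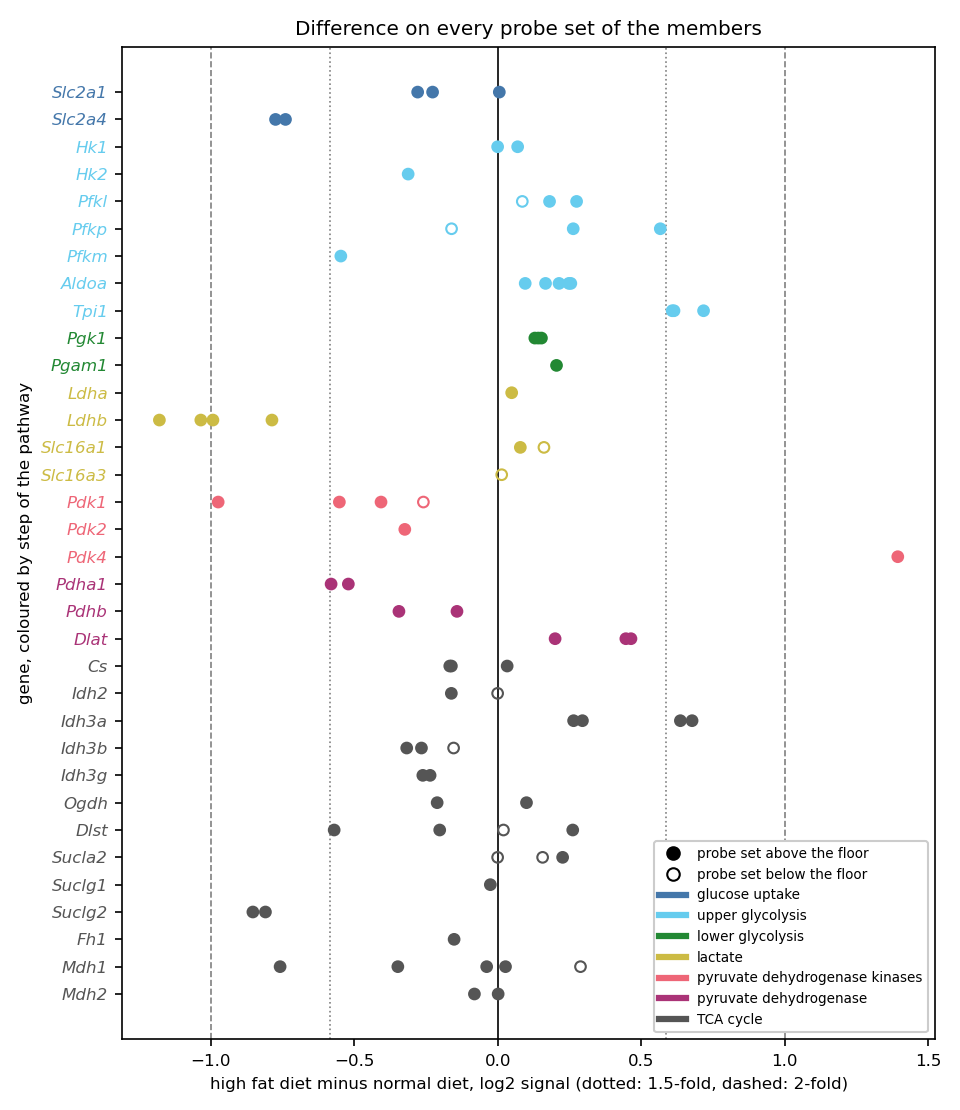
Difference between the diets (log2 signal, high fat diet minus normal diet, horizontal axis) on each of the 82 probe sets of the members, filled where the probe set lay above the floor and open where it lay under it. The 4 Ldhb probe sets lie between -1.18 and -0.79 and the 3 Tpi1 probe sets between 0.61 and 0.72, whereas the Mdh1 probe sets above the floor spread from -0.76 to 0.03.

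Lactate dehydrogenase interconverts pyruvate and lactate as a tetramer of A and B chains, and the genes of both chains behaved differently. Ldhb, the heart-type chain, had 9.28 on the high fat diet array and 10.31 on the normal diet array, 2.05-fold lower. Its 4 probe sets read -1.03, -0.79, -1.18 and -0.99, and 3.09% of all genes compared had a lower difference. Ldha, the muscle-type chain, had 12.53 on the high fat diet array and 12.48 on the normal diet array, a difference of 0.05 on 1 probe set. The gap between both genes was 1.08, past the 95th percentile of gaps within a gene. All Ldhb probe sets can match several transcripts, so none is left where such probe sets are set aside. Skeletal muscle and hepatocyte markers were lower as well, and their part in the Ldhb difference was not tested.

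The monocarboxylate transporters carry lactate and pyruvate across the cell membrane. Slc16a1, which encodes the widely expressed MCT1, had 10.75 on the high fat diet array and 10.67 on the normal diet array, a difference of 0.08. Slc16a3, which encodes the lactate exporter MCT4 of glycolytic cells, had 3.81 on the high fat diet array and 3.80 on the normal diet array. Both Slc16a3 values lay under background, so no ratio is given.

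The pyruvate dehydrogenase kinases held both the highest difference of the list and 1 of its lowest. Pdk4 had 10.28 on the high fat diet array and 8.89 on the normal diet array, 2.63-fold higher on its single probe set. Of all genes compared, 1.49% had a difference at least as high. Pdk1 had 7.92 on the high fat diet array and 8.89 on the normal diet array, 1.96-fold lower and so just short of the 2-fold limit that Ldhb just passed. The other Pdk1 probe sets above the floor read -0.41 and -0.55, so its direction was shared by 3 of 3 while its size depended on the probe set. Pdk2, the kinase found in most tissues, had 8.06 on the high fat diet array and 8.38 on the normal diet array, a difference of -0.32. Pdk3, another kinase of the family and not a listed member, had a difference of -0.28. Pdk4 thus lay 2.37 above Pdk1 and 1.72 above Pdk2, both gaps well past the 95th percentile of 0.70 within a gene.

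The subunits of pyruvate dehydrogenase itself also parted. Pdha1, the catalytic E1 alpha subunit and the target that the kinases phosphorylate, had 11.47 on the high fat diet array and 12.05 on the normal diet array, a difference of -0.58. Its other probe set read -0.52, and neither passed 1.5-fold, the brighter one by a narrow margin. Pdhb, the E1 beta subunit, had 11.85 on the high fat diet array and 12.20 on the normal diet array, a difference of -0.34 (-0.14 on its other probe set). Dlat, the E2 core that hands the acetyl group to coenzyme A, was higher instead, with 10.67 on the high fat diet array and 10.20 on the normal diet array and differences of 0.46, 0.45 and 0.20 on 3 probe sets. Dlat lay 1.04 above Pdha1 and 0.81 above Pdhb. Of the genes of the complex outside the list, Pdhx, the E3 binding protein, had -0.01 and Dld, the E3 subunit, had 0.01.

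The sequences upstream of 4 members that passed 1.5-fold are shown because they let the genes at both ends of the list be set side by side: Pdk4 and Tpi1 were higher, Ldhb and Suclg2 lower, and each has a single annotated start in the promoter table. They are the 250 bases before the RefSeq start on GRCm38.p6, all from the minus strand: chr6:5496279-5496528 for Pdk4, chr6:124814159-124814408 for Tpi1, chr6:142507958-142508207 for Ldhb and chr6:95718847-95719096 for Suclg2. Capitals mark matches on either strand to ACGTG (the core of the hypoxia response element), GGGCGG (the GC box), CCAAT (a box named for its letters), AGGTCA (a nuclear receptor half-site) or TATAAA (the element that positions the start in some promoters).
Pdk4: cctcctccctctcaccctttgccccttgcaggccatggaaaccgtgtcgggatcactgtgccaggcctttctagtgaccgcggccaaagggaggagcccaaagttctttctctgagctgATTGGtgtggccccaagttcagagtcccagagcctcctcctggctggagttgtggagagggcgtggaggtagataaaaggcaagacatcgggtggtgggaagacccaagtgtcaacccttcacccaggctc
Tpi1: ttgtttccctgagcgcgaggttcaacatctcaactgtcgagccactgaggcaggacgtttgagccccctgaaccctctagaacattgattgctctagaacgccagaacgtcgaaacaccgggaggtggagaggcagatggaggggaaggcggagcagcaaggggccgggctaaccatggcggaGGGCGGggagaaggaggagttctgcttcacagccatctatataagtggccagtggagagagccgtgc
Ldhb: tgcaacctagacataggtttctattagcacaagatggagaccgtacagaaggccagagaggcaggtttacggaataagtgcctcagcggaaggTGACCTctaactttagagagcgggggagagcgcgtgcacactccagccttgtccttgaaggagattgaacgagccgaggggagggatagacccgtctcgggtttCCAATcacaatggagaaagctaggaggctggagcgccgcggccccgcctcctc
Suclg2: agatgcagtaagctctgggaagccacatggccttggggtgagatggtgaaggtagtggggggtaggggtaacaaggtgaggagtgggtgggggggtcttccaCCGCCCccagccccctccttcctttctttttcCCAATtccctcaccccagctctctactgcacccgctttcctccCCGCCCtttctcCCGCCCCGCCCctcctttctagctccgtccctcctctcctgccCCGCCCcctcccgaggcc
The Pdk4 window held 1 CCAAT box on the other strand, 131 to 127 bases before the start, and the Tpi1 window held 1 GC box. The Ldhb window held 1 CCAAT box and, on the other strand, 1 nuclear receptor half-site 157 to 152 bases before the start. The Suclg2 window held 1 CCAAT box and 5 GC boxes, of which 2 share a base. None of the 4 windows held ACGTG, and these matches are letters in a window, not measured binding.

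Over the whole list 35 of 37 genes had 51 windows of this kind, since 8 genes have several starts, and 32851 windows were available over all genes. ACGTG stood in 21 of the 51 member windows (41.2%) against 16.6% of all windows, GGGCGG in 26 (51.0%) against 32.7%, and CCAAT in 21 (41.2%) against 33.8%. AGGTCA stood in 7 (13.7%) against 14.02%, and TATAAA in 0 against 12.4%. The member windows were also richer in G and C, with a median of 60.8% against 52.4%, and windows of 1 gene can overlap. By gene, ACGTG was found for 14 of 35, and no such share by gene was taken over all genes. The genes were Slc2a1, Hk2, Pfkm, Aldoa, Pgk1, Pgam1, Ldha, Slc16a1, Slc16a3, Pdk2, Pdhb, Idh3g, Mdh1 and Ogdh. Slc16a3 lay under the floor, and the others differed by less than 1.5-fold, as did 27 of all 33 members.

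In the TCA cycle, which oxidises acetyl-CoA in mitochondria, 10 of 13 genes were lower and 3 higher by their brightest probe set on the high fat diet array. The median was -0.16, and 49.3% of all genes were lower. For Cs, Ogdh, Dlst, Mdh1 and Mdh2 the probe sets above the floor did not all point the same way, so the count overstates the genes with a readable direction. Sizes were mostly small, and 12 of the 13 differed by less than 1.5-fold. Most genes on the arrays did so too, as 8.20% of all genes passed 1.5-fold upward and 8.52% downward. The entry enzyme citrate synthase (Cs) had 11.68 on the high fat diet array and 11.85 on the normal diet array, but its 3 probe sets read -0.17, -0.16 and 0.03. Idh2, the NADP-dependent isocitrate dehydrogenase of mitochondria, had -0.16 and Fh1, fumarase, had -0.15.

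Isocitrate dehydrogenase 3, the NAD-dependent enzyme of the cycle, is built of 3 kinds of subunit whose genes did not move together. Idh3a, the catalytic alpha subunit, was higher, with 12.43 on the high fat diet array and 12.17 on the normal diet array. Its 4 probe sets read 0.26, 0.64, 0.68 and 0.30, of which 2 passed 1.5-fold and the brightest did not. Idh3b had 11.22 on the high fat diet array and 11.54 on the normal diet array, with -0.32 and -0.27 on 2 probe sets above the floor. Idh3g had 11.42 on the high fat diet array and 11.68 on the normal diet array, with -0.26 and -0.24. Each reading of Idh3a lay above each reading of the other two, although the gaps of 0.58 and 0.53 between the brightest probe sets stayed under the 95th percentile of gaps within a gene.

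Succinyl-CoA synthetase joins a shared alpha subunit to a beta subunit that makes either ATP or GTP. Suclg2, the beta subunit that makes GTP, had 9.40 on the high fat diet array and 10.21 on the normal diet array, 1.75-fold lower, and its other probe set read -0.85. Both can match several transcripts. Sucla2, the beta subunit that makes ATP, had 11.86 on the high fat diet array and 11.63 on the normal diet array, a difference of 0.23. Suclg1, the shared alpha subunit, had 10.92 on the high fat diet array and 10.94 on the normal diet array. Both beta subunits thus lay 1.04 apart. Liver is a tissue where the GTP form is abundant, hepatocyte markers had a median of -5.52, and their part in the Suclg2 difference was not tested.

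The remaining genes of the cycle differed by little or gave mixed readings. Ogdh and Dlst, the E1 and E2 subunits of oxoglutarate dehydrogenase, had -0.21 and -0.20 on their brightest probe sets. Dimmer probe sets above the floor read 0.10 for Ogdh and 0.26 and -0.57 for Dlst. Mdh2, the malate dehydrogenase of mitochondria, had -0.08, and Mdh1, its cytosolic counterpart of the malate-aspartate shuttle, had 0.03 on its brightest probe set but -0.35, -0.04 and -0.76 on the others above the floor. No direction can be read for Ogdh, Dlst, Mdh1 or Mdh2. Across the list, 22 members had several probe sets above the floor, and in 15 of them these all pointed the same way.

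**Figure D3:**
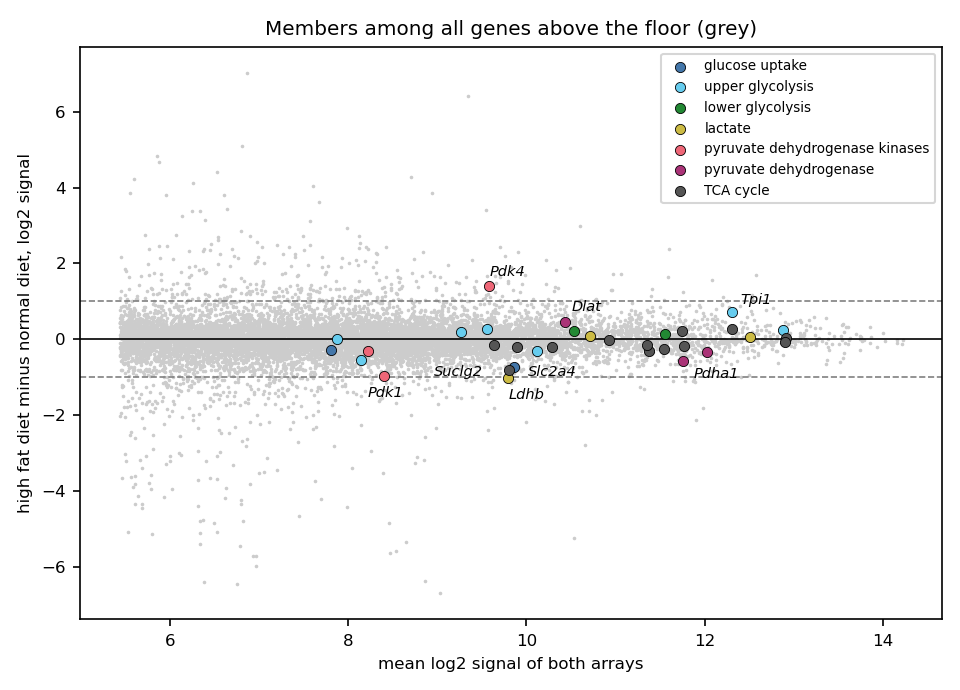
Difference between the diets (log2 signal, vertical axis) against the mean log2 signal of both arrays (horizontal axis) for 11778 genes above the floor (grey) and the 33 members (coloured by step). Pdk4 at 1.39 and Ldhb at -1.03 lie past the dashed 2-fold lines, and the remaining members lie between them.

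The other genes of these pathways were taken from 8 lists of 112 genes, of which 105 had a probe set and 94 lay above the floor. In all, 33 were higher and 59 lower, beside 49.9% and 49.3% of all genes. The median was -0.13, against 0 over all genes, and smaller than the SD of 0.27 between probe sets of 1 gene. At 2-fold 4 were higher and 11 lower of 94, again beside 3.28% and 3.29% of all genes. The higher ones were Hk3, Pfkfb4, Tigar and Gys2.

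Among other sugar transporters 3 of 8 passed 2-fold downward and 0 upward, beside 3.29% and 3.28% of all genes. Slc2a3, the high-affinity transporter GLUT3, had 6.71 on the high fat diet array and 8.61 on the normal diet array, 3.72-fold lower, with -1.87 on its second probe set. Slc2a13, the proton-coupled inositol transporter, was 2.36-fold lower, and Slc2a2, the transporter GLUT2 of liver and islets, was 2.24-fold lower. Slc2a10 was the highest at 0.85. At 1.5-fold 4 of these 8 were lower and 1 higher, beside 8.52% and 8.20% of all genes. Hepatocyte and pancreatic acinar markers were lower too (medians of -5.52 and -3.11), and their part was not tested.

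Other glycolytic enzymes went both ways, as 3 of 12 passed 2-fold upward and 2 downward, beside 3.28% and 3.29% of all genes. Hk3, a hexokinase of myeloid cells, had 8.24 on the high fat diet array and 6.91 on the normal diet array, 2.51-fold higher, and its other probe set read 1.14. Pfkfb4, which sets the level of fructose 2,6-bisphosphate, was 2.16-fold higher, and Tigar, which lowers that level, was 2.15-fold higher, with 0.73 and 0.71 on its other probe sets. Eno3, the muscle enolase, had 6.68 on the high fat diet array and 8.16 on the normal diet array, 2.80-fold lower, and Aldoc was 2.05-fold lower. Macrophage markers (median 1.44) moved in the direction of Hk3 and skeletal muscle markers (median -1.97) in that of Eno3. Their part was not tested.

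Gluconeogenesis genes held the lowest difference of these lists. Fbp1, fructose bisphosphatase of liver and kidney, had 5.30 on the high fat diet array and 8.81 on the normal diet array, 11.4-fold lower. The lower of these levels lay near the floor of 5.44, so the size of the ratio is uncertain. Pck1, which in fat cells feeds the synthesis of glycerol 3-phosphate, had 11.32 on the high fat diet array and 12.46 on the normal diet array, 2.19-fold lower, with -1.06 on its second probe set. Fbp2, the muscle form of the bisphosphatase, was the highest at 0.39. The hepatocyte markers lower on the same array had a range from -6.70 to -4.42.

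Lactate and pyruvate transport outside the list showed Ldhc, a testis lactate dehydrogenase, 2.75-fold lower and Slc16a8 highest at 0.27. Mpc1, a subunit of the carrier that brings pyruvate into mitochondria, had -0.23. The other pyruvate dehydrogenase genes ran from -0.44 for Pdpr, the regulatory subunit of the phosphatase, to 0.01 for Dld. Thus 0 of 6 above the floor passed 1.5-fold, beside 8.20% of all genes upward and 8.52% downward, too few genes to tell from those shares. The phosphatases that reverse the kinases, Pdp1 and Pdp2, had -0.30 each, but a second Pdp1 probe set read 0.07, so no direction can be read for Pdp1. Of other TCA cycle and shuttle genes 8 were higher and 10 lower of 18, beside 49.9% and 49.3% of all genes. The succinate dehydrogenase subunits Sdha and Sdhb were at -0.36 each and Sdhc and Sdhd at -0.08 and -0.04.

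Among 19 regulators 14 were lower and 5 higher, beside 49.3% and 49.9% of all genes, and 2 passed 2-fold downward, beside 3.29%. Mlxipl, the carbohydrate sensor ChREBP that activates glycolytic and lipogenic genes, had 7.72 on the high fat diet array and 9.06 on the normal diet array, 2.54-fold lower. Vegfa, a growth factor gene that hypoxia induces, was 2.03-fold lower on its brightest probe set and read -0.35 on the other. Hif1a, the hypoxia-inducible factor, was highest of the list at 0.59, with 11.47 on the high fat diet array and 10.88 on the normal diet array. Its 3 probe sets above the floor read 0.59, 0.57 and 0.96. Endothelial markers, 8 of 8 lower with a median of -0.61, moved in the direction of Vegfa, and their part was not tested.

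Ppargc1a, a coactivator of mitochondrial genes, had 5.14 on the high fat diet array and 6.10 on the normal diet array, a difference of -0.95. These levels lie near the floor of 5.44, and the other Ppargc1a probe sets lay under it. Klf15, an activator of amino acid and gluconeogenic genes, had -0.85, so that both genes passed 1.5-fold downward. Txnip, which restrains glucose uptake and is a target of ChREBP, had -0.46.

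**Figure D4:**
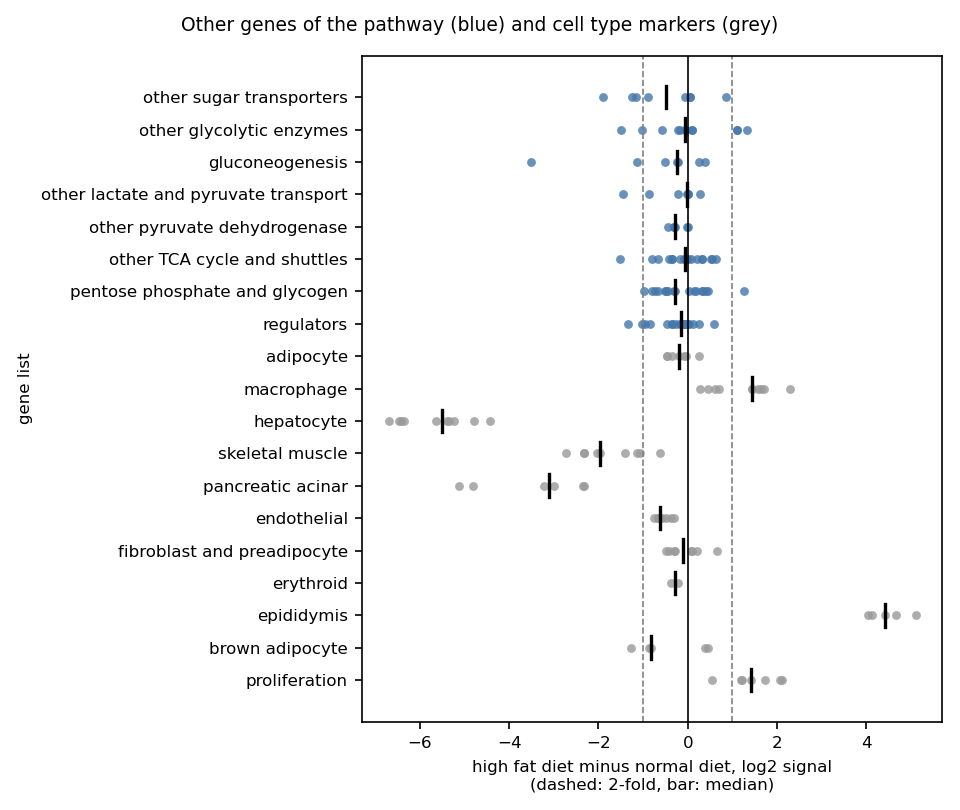
Difference between the diets (log2 signal, horizontal axis) of the genes above the floor in 8 lists of other pathway genes (blue) and 11 cell type marker lists (grey), with a bar at each median. The pathway lists have medians between -0.48 and -0.03, whereas hepatocyte markers have a median of -5.52 and epididymis markers one of 4.41.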

How the data were processed

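Adipose RNA was hybridised to 2 Affymetrix mouse arrays, 1 per diet, each with RNA pooled from 3 animals. The log2 signals were made by the authors with RMA, per the submitters' processing notes (its version is not stated there). That the scale is log2 follows from the range of the values, 2.06 to 14.21 for the high fat diet and 2.04 to 14.28 for the normal diet. Sorted, both columns differed nowhere by more than 0.14, so a change in total RNA cannot be seen. The scanner files were not used here, and signal depth beyond these values is unknown.

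Of 45101 probe sets, 34958 had 1 gene symbol in GEO's platform annotation, 932 had several and 9160 besides controls had none. The 64 control probe sets were left out of gene comparisons. Entrez IDs of 34754 probe sets were found in the RefSeq table of GRCm38.p6, which changed no symbol. The brightest probe set stood for a gene. Every member is accounted for. Values on both arrays were given for members past 1.5-fold and for the highest and lowest of each step, and of other pathway genes those past 2-fold and the highest and lowest of each list were named. Other genes were named outside this rule. The members and the lists were chosen with earlier results of these data known. The call procedure was run on simulated data with a shift set well past the 2-fold limit. This checks the code alone and says nothing of the error from animals, dissection or hybridisation. Python 3.11.15, numpy 2.4.6 and pandas 2.3.3 were used. The alternatives were another choice of probe set, 3 other floors, values raised to background, 2 other scalings, and leaving out bright genes or probe sets that match several transcripts. The latter were recognised by the suffix of their name alone, so transcripts of 1 gene were not told apart from those of several genes.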

Additional observations from a re-analysis of the deposited data

How the results depend on the processing

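Each member, step and count was recomputed under 9 alternatives. Of 278 values of single members, 4 moved by more than 0.27, the SD between probe sets of 1 gene, and no called member changed direction. Many of the 278 could not move. The other floors, raising values to background and leaving out bright genes returned the value of each member they kept unchanged. The 4 moves came from the alternatives that change which probe sets are read, so their share of 278 does not measure robustness. Pdk1 had -0.48 with the median of its probe sets and -0.41 when probe sets able to match several transcripts were set aside. It no longer passed 1.5-fold in either case. With such probe sets set aside, Slc2a1 had 0.01 and Idh3a 0.68. The members at least 2-fold lower then numbered 0 and those at least 1.5-fold lower 1, since Ldhb and Suclg2 had no probe set left and Pdk1 was under 1.5-fold. Tpi1 had none left either, and the 2 members at least 1.5-fold higher were then Pdk4 and Idh3a. The upper glycolysis median was then -0.31 over 3 genes. With quantile normalization, 1 of the 2 other scalings, Pdha1 had -0.60 and passed 1.5-fold, and 5 members were at least 1.5-fold lower. Where a gene took the median over its probe sets, the median of all members was -0.055 and that of the TCA cycle -0.081. Without genes at a mean level of 12 or more, 1 member was at least 1.5-fold higher, and the medians were 0 for upper glycolysis, -0.48 for lactate over 2 genes and -0.058 for pyruvate dehydrogenase. The median of all members stayed between -0.18 and -0.055 and the count at least 2-fold higher was 1 in all 9 alternatives. No paired analysis was possible because each diet has 1 array, and for the same reason no array could be left out.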

Other observations

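Genes of glycogen metabolism and the pentose phosphate pathway, which both start from glucose 6-phosphate went both ways. Among 17 genes above the floor 8 were higher and 9 lower with the high fat diet, close to the 49.9% and 49.3% of all genes. The median was -0.29. The glycogen phosphorylases Pygb and Pygl, which release glucose from glycogen, had -0.99 and -0.72, the branching enzyme Gbe1 had -0.81 and Ugp2, which makes UDP-glucose, had -0.51. Gyg, glycogenin, which primes glycogen, had 0.44, and Pgm2 had 0.40. Gys2, the glycogen synthase known from liver, was 2.40-fold higher instead, with 8.74 on the high fat diet array and 7.48 on the normal diet array on 1 probe set, against -0.49 for Gys1, the synthase of muscle and most tissues. In the pentose phosphate pathway Tkt, transketolase, had -0.66 and H6pd had -0.32, while Rpe and Rpia had 0.33 and 0.32.

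The glycerol 3-phosphate shuttle, which carries electrons from cytosolic NADH into mitochondria, had 2 enzymes that differed in opposite directions. Gpd2, the mitochondrial enzyme, had 8.63 on the high fat diet array and 10.15 on the normal diet array, 2.87-fold lower, and its other probe sets above the floor read -1.43 and -1.39. Gpd1, the cytosolic enzyme, which also supplies the glycerol backbone of triglyceride, had 12.35 on the high fat diet array and 11.81 on the normal diet array, a difference of 0.55. Of the carriers, Slc25a10, for dicarboxylates, was highest of its list at 0.64, and the mitochondrial transaminase Got2 had -0.66. The citrate lyase Acly, which turns exported citrate back into acetyl-CoA for fatty acid synthesis, had -0.80, while the citrate carrier Slc25a1 had 0.32.

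Probe sets annotated to Gapdh together with its pseudogenes, 3 in number and outside the rule for members, differed by -0.02, -0.05 and 0.

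Other marker lists, with no part in a result tested, also differed. Epididymis markers had levels of 8.21 to 9.62 on the high fat diet array and 3.54 to 5.59 on the normal diet array, where 4 of 5 were under background. Pancreatic acinar markers had levels of 3.78 to 5.57 on the high fat diet array, where 4 of 6 were under background, and 7.49 to 9.22 on the normal diet array. Proliferation genes were higher in 7 of 7 cases, from 0.54 (Pcna) to 2.11 (Birc5), and endothelial markers ran from -0.76 (Emcn) to -0.30 (Cldn5). Fibroblast and preadipocyte markers ran from -0.49 (Pdgfra) to 0.65 (Col1a1), brown adipocyte markers from -1.26 (Ucp1) to 0.45 (Cox8b), erythroid markers from -0.37 (Slc4a1) to -0.21 (Alas2), and adipocyte markers from -0.47 (Pparg) to 0.25 (Cidec).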
